A study of Mus musculus with 4 samples.

Results

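The 6 interferon-response genes described here were Ifih1, Irf7, Irf2, Ifit2, Oasl2 and Ifi202b, which act as sensors, transcription factors and effectors and encode no GTPase. They were taken as every oligonucleotide whose gene symbol in the platform annotation was exactly 1 of these names, which gave 8 oligonucleotides with 2 spots each, or 16 of the 32448 spots of an array, and 6 of the 11138 genes measured. Each gene had 1 oligonucleotide, except Ifi202b with 3. The genes were chosen with their ratios at both times known, so all values below are descriptions and none was tested.

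Cardiac endothelial cells line the blood vessels of the heart. Their RNA was amplified and compared on 2-colour long-oligonucleotide arrays between mice given LPS by intraperitoneal injection and mice given saline, at 4 h and at 24 h. LPS comes from the outer membrane of Gram-negative bacteria. Each time had 2 arrays, array 1 with LPS RNA in Cy5 and saline RNA in Cy3, and array 2 with the dyes reversed. No label says that a reversed array held other animals or extracts, so the 2 arrays of a time counted as 1 replicate. Strain, age, LPS dose, the number of animals pooled, the method of isolating the endothelium and whether the 2 times shared saline RNA are not stated in the labels. The files hold ratios and no signal levels, so the labelled cell type could not be checked against the level of its markers.

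Type I interferons signal through a receptor, JAK kinases and a complex that holds STAT2 and IRF9, which binds the interferon-stimulated response element and switches on a large set of antiviral genes. LPS, sensed by Toll-like receptor 4, induces interferon-beta through IRF3, so that interferon-stimulated genes are part of the usual response of endothelial cells and macrophages to LPS. IRF7 amplifies interferon production, while IRF2 competes with other members of its family at the same DNA element and is known largely as a repressor.

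All values are log2 ratios of LPS over saline, centred on each array's median over genes, so that 1 is 2-fold and 0 is no difference. Means are given with the SD between the 2 arrays at that time (n = 2 arrays). This SD holds error of array and dye. The labels do not say whether it holds any spread between animals, and it is not read as such. A gene was called higher or lower where both arrays lay at least 1 log2 unit from 0 on the same side. The direction, LPS over saline, is called likely because it follows the labelled dyes, while the deposited table itself does not state it. Over all spots the deposited ratios of the 2 arrays correlated at only -0.056 at 4 h and -0.064 at 24 h. Were the ratios Cy3 over Cy5, each higher value below would read lower, and if the ratios of array 2 had already been turned, the gene means of the 6 genes would lie between -0.745 and 0.39 and 0 would be called.

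At 4 h, 4 of the 6 genes were called higher and 0 lower, and Irf2 and Oasl2 stood near 0. At 24 h the same 4 genes, Ifit2, Ifih1, Irf7 and Ifi202b, were called higher, and Irf2 and Oasl2 were called lower. Of all genes, 2.25% were called higher and 0.997% lower at 4 h, while 1.42% passed 2-fold upwards on one array and downwards on the other. At 24 h the shares were 3.48% higher, 3.52% lower and 3.69% discordant in this way. Since the genes were chosen on these contrasts, nothing is read from their counts against these shares. The median over the 6 genes was 1.84 at 4 h and 1.29 at 24 h, beside -0.02 at both times over all genes. As bulk RNA was measured, a change in the number of responding cells and a change of RNA per cell cannot be told apart.

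**Figure D1:**
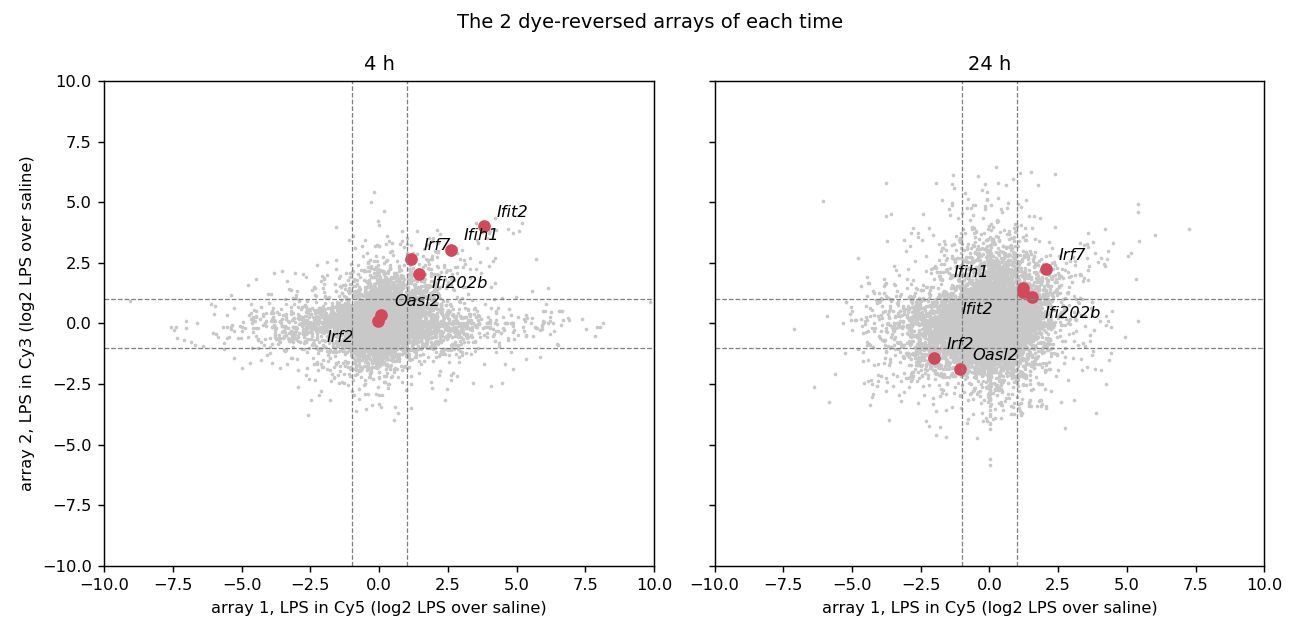
Each point is a gene, with its log2 ratio of LPS over saline on array 1 (LPS in Cy5, x axis) and array 2 (LPS in Cy3, y axis) at 4 h (left) and 24 h (right). Grey points are all 11138 genes, red points the 6 interferon genes, and dashed lines mark 2-fold. Ifit2 lies at 3.83 and 4.01 at 4 h, and Irf2 and Oasl2 move from near 0 at 4 h to the lower left at 24 h.

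Ifih1 encodes MDA5, a cytosolic helicase that senses long double-stranded RNA. At 4 h its spots read 1.97 and 3.24 on array 1 and 3.17 and 2.93 on array 2. All 4 spots were thus more than 2-fold higher, and the mean was 2.83 ± 0.31, a 7.10-fold ratio. At 24 h its spots read 1.31 and 1.11 on array 1, but -0.40 and 3.34 on array 2. The mean of 1.34 ± 0.19 met the rule for a call although 1 of its 4 spots lay below 0. The gap of 3.74 between the spots of array 2 was reached by only 5.50% of all oligonucleotides on that array. The small SD of Ifih1 at 24 h therefore does not reflect the spread of its spots.

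Near the start of Ifih1 in the RefSeq annotation of build GRCm38.p6, the core of the interferon-stimulated response element, GAAANNGAA searched on both strands, was matched in reverse at bases -112 to -104 and again at bases 33 to 41 after the start. Ifih1 was the 1 called-higher member with such a match, so its bases are shown, with matches in capitals. The promoter is the 250 bases before the start, chr2:62646256-62646505 on the minus strand, and the site lies at chr2:62646206-62646232 on the same strand.
Ifih1 promoter: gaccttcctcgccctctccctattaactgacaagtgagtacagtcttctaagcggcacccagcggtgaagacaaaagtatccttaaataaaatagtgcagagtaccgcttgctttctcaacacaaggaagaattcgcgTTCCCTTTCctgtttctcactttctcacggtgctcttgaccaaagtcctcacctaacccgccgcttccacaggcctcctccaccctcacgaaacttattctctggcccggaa
Ifih1 site: aagagaatcGAAACAGAAaccgatctg

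Irf7 encodes the transcription factor that drives most interferon-alpha genes and is itself induced by interferon. At 4 h its spots read 1.84 and 0.50 on array 1 and 2.42 and 2.90 on array 2. All were above 0 but 1 was under 2-fold, and the mean was 1.91 ± 1.05. At 24 h they read 1.82 and 2.28 on array 1 and 2.31 and 2.17 on array 2. All 4 spots were then between 1.82 and 2.31, and the mean was 2.14 ± 0.13, a 4.42-fold ratio. Irf7 had the highest gene mean of the 6 at 24 h. By this mean it ranked 140th of 11138 genes from the top, and 269th and 464th by array 1 and array 2 alone. The order against Ifi202b turned when oligonucleotides whose spots lay over 1 log2 unit apart were left out, which put Ifi202b at 2.24 and Irf7 at 2.16.

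Irf2 stood on the other side of 0 from Irf7 at 24 h. At 4 h its spots read -0.0033 and -0.11 on array 1 and 0.12 and 0.10 on array 2. No spot was near 2-fold, and the mean was 0.03 ± 0.12. At 24 h they read -1.95 and -2.07 on array 1 and -1.50 and -1.37 on array 2. All 4 spots were more than 2-fold lower, and the mean was -1.72 ± 0.41, with LPS lower than saline by 3.30-fold. The spots of each array differed by 0.11 and 0.13, so duplicate spots of Irf2 differed by less than its 2 arrays did, at -2.01 and -1.43.

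The 250 bases before the RefSeq start of both factors are shown because the 2 regulators stood on opposite sides of 0 at 24 h. The windows, of build GRCm38.p6, are chr8:46739495-46739744 on the plus strand for Irf2 and chr7:141266425-141266674 on the minus strand for Irf7. Capitals mark matches to the element core GAAANNGAA, to the gamma-activated site TTCNNNGAA, and to the NF-kB site GGGNTTTCC, each searched on both strands. The letters of the motifs were set after the windows of the 6 genes had been seen.
Irf2 promoter: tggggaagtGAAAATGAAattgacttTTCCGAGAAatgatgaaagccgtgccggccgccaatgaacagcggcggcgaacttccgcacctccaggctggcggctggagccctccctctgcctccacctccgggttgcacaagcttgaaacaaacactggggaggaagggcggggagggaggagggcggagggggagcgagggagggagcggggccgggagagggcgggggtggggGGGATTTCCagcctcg
Irf7 promoter: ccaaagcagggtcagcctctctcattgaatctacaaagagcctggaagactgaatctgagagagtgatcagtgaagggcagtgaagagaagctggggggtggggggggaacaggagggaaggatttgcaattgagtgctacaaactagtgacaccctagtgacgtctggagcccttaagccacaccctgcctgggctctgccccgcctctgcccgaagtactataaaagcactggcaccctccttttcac

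Irf2 had a match to the element core at -241 to -233, to the gamma-activated site at -224 to -216 and to the NF-kB site at -16 to -8, none of which overlap. The window of Irf7 held none of the 3 motifs. In all 32851 promoter windows of 300 bases, from 250 before to 50 after the start, 8.56% held the element core, 8.30% the gamma-activated site and 1.68% the NF-kB site. All 6 genes had a window in the table, and Ifit2 had 2. Beyond Irf2 and Ifih1, the gamma-activated site was matched in Ifi202b and in 1 window of Ifit2, and Oasl2 held none. A match is a description of letters and not a measured site, and a window without one says nothing about the factor.

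Ifit2 encodes an effector that binds RNA and restrains viral translation, and at 4 h it had the highest gene mean of the 6, level with 1 of the 3 Ifi202b oligonucleotides. At 4 h its spots read 3.87 and 3.79 on array 1 and 4.15 and 3.88 on array 2. The 4 spots lay between 3.79 and 4.15, and the mean was 3.92 ± 0.13, a 15.2-fold ratio. It ranked 11th of 11138 genes by this mean, but 129th by array 1 and 10th by array 2 alone. At 24 h they read 1.40 and 1.05 on array 1 and 1.21 and 1.36 on array 2. All were still above 2-fold, with a mean of 1.26 ± 0.04, a 2.39-fold ratio. Every spot of 24 h was below every spot of 4 h.

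Oasl2 belongs to the family of 2'-5' oligoadenylate synthetases, which make a messenger that activates RNase L. At 4 h its spots read 0.19 and -0.02 on array 1 and 0.40 and 0.28 on array 2. These lay close to 0, with a mean of 0.21 ± 0.18. At 24 h they read -1.46 and -0.70 on array 1 and -2.06 and -1.67 on array 2. All were below 0 and 3 of 4 were past 2-fold, with a mean of -1.47 ± 0.56. Array 1 alone stood at -1.08, just past the threshold, and the call was lost with scale or quantile normalization.

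Ifi202b encodes p202, a DNA-binding protein of the HIN-200 family that restrains the DNA sensor AIM2. Its 3 oligonucleotides, named by the sequence records from which they were designed, gave different ratios. For NM_011940 the spots of 4 h read 3.89 and 3.75 on array 1 and 4.58 and 3.49 on array 2, and those of 24 h read 2.86 and 2.95 on array 1 and 2.37 and 2.49 on array 2. All 8 values were more than 2-fold higher, with means of 3.93 ± 0.15 at 4 h and 2.67 ± 0.34 at 24 h. For M31418 the spots of 4 h read 0.87 and 0.83 on array 1 and 2.81 and 2.66 on array 2. At 24 h they read 2.58 and 2.60 on array 1 and 1.07 and 0.80 on array 2. This oligonucleotide was above 0 in all spots, but its 2 arrays differed at each time by far more than its duplicate spots did, and its means were 1.79 ± 1.33 and 1.76 ± 1.17.

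The Ifi202b oligonucleotide NM_008327 was not higher on any array. Its spots of 4 h read -0.15 and -0.41 on array 1 and -0.58 and -0.64 on array 2, and those of 24 h read -0.17 and -1.51 on array 1 and -0.08 and -0.05 on array 2. Its means were -0.45 ± 0.23 at 4 h and -0.45 ± 0.55 at 24 h. The means of the 3 oligonucleotides thus spanned 4.37 log2 units at 4 h, the widest span among the 958 genes with several oligonucleotides, whose median span was 0.53. At 24 h the span was 3.12, and 25 of the 958 genes, Ifi202b included, had a span that wide.

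The gene value of Ifi202b, 1.76 ± 0.42 at 4 h and 1.33 ± 0.32 at 24 h, is therefore an average of oligonucleotides that disagree, and with the median over its 6 spots it was called at neither time. The current RefSeq table places both NM_008327 and NM_011940 under Ifi202b. HIN-200 genes are close relatives, and as the letters of the oligonucleotides were not used here, which transcripts each one binds was not tested. The 250 bases before the start of Ifi202b, chr1:173982845-173983094 on the minus strand of GRCm38.p6, are shown for their match to the gamma-activated site, in capitals, at -148 to -140.
Ifi202b promoter: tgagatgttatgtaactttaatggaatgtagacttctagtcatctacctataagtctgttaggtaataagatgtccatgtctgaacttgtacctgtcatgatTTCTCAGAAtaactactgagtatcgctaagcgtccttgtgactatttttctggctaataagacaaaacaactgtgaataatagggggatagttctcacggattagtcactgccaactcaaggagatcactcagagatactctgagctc

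**Figure D2:**
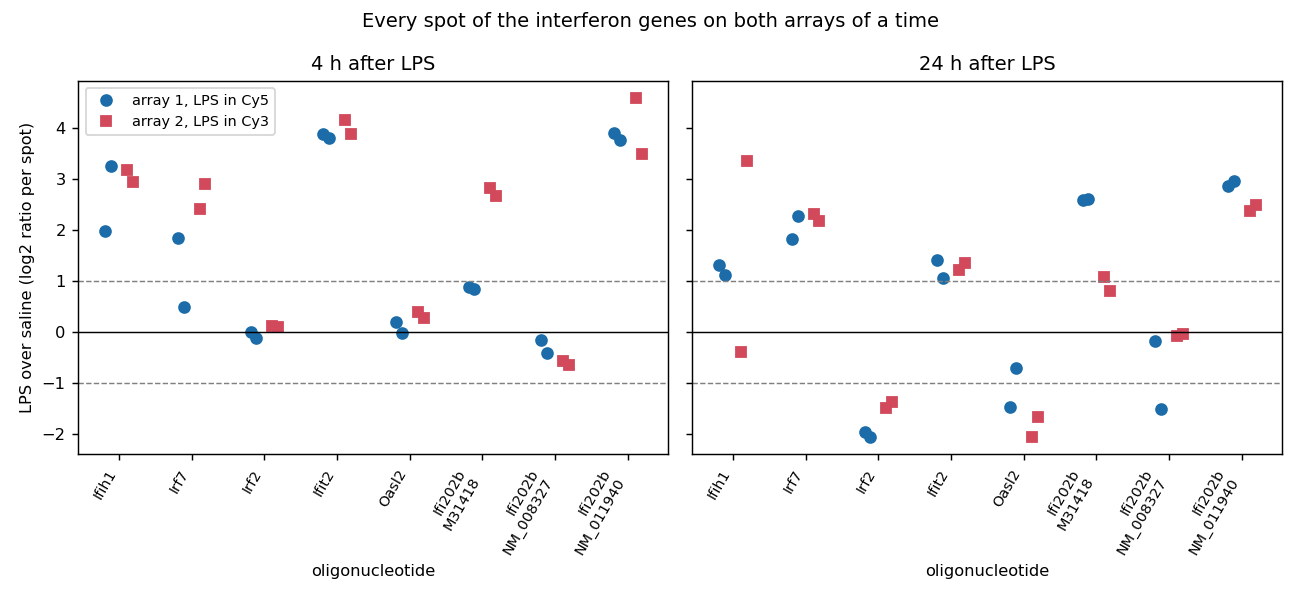
Each point is 1 spot, with its log2 ratio of LPS over saline on the y axis and the 8 oligonucleotides on the x axis, at 4 h (left) and 24 h (right). Blue circles are array 1 and red squares array 2, and dashed lines mark 2-fold. The 4 spots of Ifit2 at 4 h lie between 3.79 and 4.15, the spots of Ifih1 on array 2 at 24 h lie at -0.40 and 3.34, and the oligonucleotides of Ifi202b stand apart from each other.

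Requiring every spot of a gene on both arrays to be past 2-fold left Ifit2 and Ifih1 as higher at 4 h. At 24 h it left Ifit2 and Irf7 as higher and Irf2 as lower. Of all genes, 1.25% were higher and 0.323% lower in every spot at 4 h, and 1.87% and 1.78% at 24 h. Ifit2 was the 1 member past 2-fold in every spot at both times. With the arrays brought to 1 scale, Ifit2 at 0.98, Ifih1 at 1.05, Ifi202b at 1.04 and Oasl2 at -1.16 were not called at 24 h, while Irf7 at 1.68 and Irf2 at -1.35 were.

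In order of the gene mean at 4 h, Ifit2 came first, then Ifih1, Irf7, Ifi202b, Oasl2 and Irf2. As the genes were read on the same arrays, neighbours in this order were set side by side within each array. Ifit2 exceeded Ifih1 by 1.22 on array 1 and 0.96 on array 2. Ifih1 exceeded Irf7 on both arrays too, but by 1.44 and 0.39. Irf7, at 1.17 and 2.66, and Ifi202b, at 1.47 and 2.05, changed places between the arrays. Ifi202b lay above Oasl2 by 1.38 and 1.72. Its place holds for the average over its oligonucleotides. NM_008327 alone, at -0.28 and -0.61, was below Oasl2 on both arrays, and NM_011940 alone, at 3.82 and 4.03, was above Ifih1 on both. Oasl2, at 0.08 and 0.34, was above Irf2, at -0.06 and 0.11, on both arrays, by only 0.14 and 0.23.

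At 24 h Irf7, at 2.05 and 2.24, lay above the gene values of the other 5 on both arrays. This holds for the average over the Ifi202b oligonucleotides, since NM_011940 alone, at 2.91 and 2.43, was above Irf7 on both. Ifih1 at 1.21 and 1.47, Ifi202b at 1.55 and 1.10 and Ifit2 at 1.23 and 1.29 had no order that both arrays shared. Oasl2 at -1.08 and -1.87 and Irf2 at -2.01 and -1.43 also changed places between the arrays.

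Between the times, 4 of the 6 genes were lower at 24 h by the criterion that the means differ by at least 1 log2 unit and that both arrays of one time lie above both of the other. Of all genes, 10.3% were lower and 9.43% higher at 24 h by this criterion. The 24 h value minus the 4 h value was -2.67 for Ifit2, -1.49 for Ifih1, -1.75 for Irf2 and -1.69 for Oasl2. By gene values, Ifit2 and Ifih1 fell towards 0 from a higher ratio, whereas Irf2 and Oasl2 passed from near 0 to a lower one. The fall of Ifih1 rests on averaged spots. Those of array 2 at 24 h were -0.40 and 3.34, and the latter lay above its highest spot of 4 h, 3.24. Irf7 at 0.23 and Ifi202b at -0.43 had arrays that overlapped between the times. The sign for Irf7 depended on scaling. With scale normalization its means were 2.59 at 4 h and 1.68 at 24 h, and with quantile normalization 2.30 and 2.09. Of all genes, 54 (0.485%) were called higher at both times, among them the 4 members, and 385 (3.46%) were called lower at 24 h and not called at 4 h, as Irf2 and Oasl2 were.

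**Figure D3:**
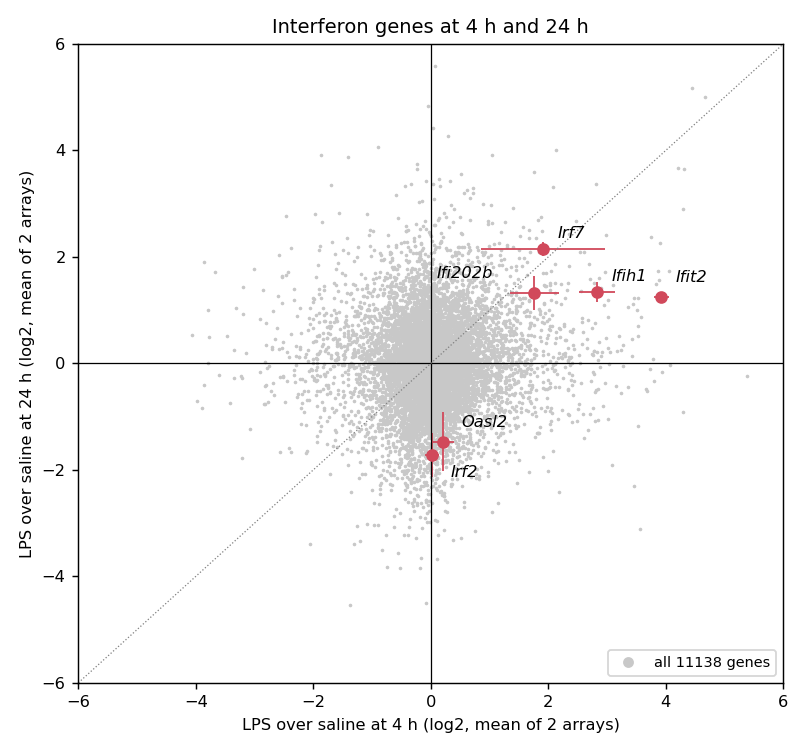
Each point is a gene, with its mean log2 ratio of LPS over saline at 4 h (x axis) and 24 h (y axis) over 2 arrays. Grey points are all 11138 genes, red points with bars the 6 interferon genes with the SD of the 2 arrays, and the dotted line marks equal ratios. Ifit2, at 3.92 and 1.26, lies far below the line, Irf7 lies near it with a wide bar at 4 h, and Irf2 and Oasl2 lie below 0 at 24 h.

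For each gene, the 2 genes with the most similar pattern were those at the smallest Euclidean distance over the gene values of the 4 arrays. Ifit2 was closest to Cxcl1, a chemokine for neutrophils, at a distance of 0.52, and to Cmpk2, a mitochondrial nucleotide kinase, at 0.99, where the median distance of all genes from Ifit2 was 6.03. Ifih1 was closest to Usp18, which removes ISG15 from proteins, at 0.46 and to Psme2b, a close copy of a proteasome activator gene, at 0.66. Irf7 was closest to Cycs, which encodes cytochrome c, at 0.73 and to Samhd1, which degrades nucleotides, at 0.79. Irf2 was closest to Fto, an RNA demethylase, at 0.08 and to Ehd3 at 0.22. Oasl2 was closest to Slc38a1, a glutamine transporter, at 0.31 and to Qpct at 0.33. Ifi202b was closest to Nmi, a partner of STAT proteins, at 0.38 and to Actg1, a cytoplasmic actin, at 0.39. These distances hold for the average over the Ifi202b oligonucleotides, whose own means at 4 h were 3.93, 1.79 and -0.45, and not for each oligonucleotide. Those of Ifih1 likewise rest on averaged spots, which were -0.40 and 3.34 on array 2 at 24 h. The median distance of all genes was 4.70 from Ifih1, 4.47 from Irf7, 2.83 from Irf2, 2.62 from Oasl2 and 3.51 from Ifi202b. Distances are therefore not compared between members. Of the 12 nearest genes, Cmpk2, Usp18, Samhd1 and Nmi stood in the interferon lists below. Those lists held 78 of the 11138 genes beyond the members. They were drawn up with earlier results of these data known, so nothing is read from this overlap.

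The other genes of the pathway were taken from 7 lists without the interferon-induced GTPases, with 84 genes measured, 78 of them no member. Of these 78, 19 were called higher and 0 lower at 4 h, and 4 higher and 2 lower at 24 h, with medians of 0.51 and 0.15. These are 24.4% higher at 4 h, beside 2.25% of all genes, and 5.13% higher and 2.56% lower at 24 h, beside 3.48% and 3.52%. The shares of 24 h lie near those of all genes and are no result about the pathway. With scale or quantile normalization 23 or 22 were higher and 1 lower at 4 h, and 3 higher and 2 lower at 24 h. The lists were drawn up with earlier results of these data known, so these counts are no independent evidence.

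Among 13 receptors and signal transducers, 2 were called higher at both times. Stat2, a subunit of the complex that binds the interferon-stimulated response element, read 2.75 and 2.34 at 4 h and 2.16 and 2.02 at 24 h, with means of 2.54 ± 0.30 and 2.09 ± 0.10. Usp18, which also blocks the interferon receptor, was at 2.71 ± 0.14 and 1.59 ± 0.02. At 24 h not every spot of Usp18 was past 2-fold, which its small SD does not show. Of 11 interferon genes themselves, 0 were called at 4 h, and Ifna4 at -1.74 ± 0.51 and Ifna1 at -1.58 ± 0.24 were called lower at 24 h. Interferon-alpha genes are near-identical copies, so these values are uncertain as to the gene. Every spot of Ifna4 was past 2-fold at 24 h, but not every spot of Ifna1.

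Of 9 regulatory factors, Irf1, which opposes IRF2 at shared elements, was called higher at 4 h beside Irf7. Irf1 read 1.02 on array 1 and 2.90 on array 2, with a mean of 1.96 ± 1.33, and at 24 h it was at 0.39 ± 0.27 and not called. Of 11 sensors and adaptors, Ifih1, Tlr3 and Rnf125 were called higher at 4 h. Tlr3, the endosomal receptor of double-stranded RNA, was at 2.13 ± 0.70, and Rnf125, a ubiquitin ligase that marks RNA sensors for degradation, at 2.27 ± 0.55. Every spot of Tlr3 was past 2-fold at 4 h, but not every spot of Irf1 or Rnf125. At 24 h Tlr3 and Rnf125 were not called, at 0.48 ± 0.97 and 0.17 ± 0.82, and Ifih1 was the 1 called member of this list.

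Among the 6 measured genes of the IFIT and OAS families, Ifit3 was called higher at 4 h beside Ifit2. Its arrays read 1.00 and 2.58 with not every spot past 2-fold, its mean was 1.79 ± 1.11, and it was at 0.17 ± 1.20 at 24 h. Of the 4 measured HIN-200 genes, Ifi204 was called higher at 4 h beside Ifi202b, at 2.43 ± 0.43, and at 24 h its arrays read 1.49 and -0.21.

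Of 31 other interferon-induced effectors, 12 were called higher at 4 h and 2 at 24 h, and 0 were lower at either time. The highest at 4 h was Cmpk2 at 3.45 ± 0.21, followed by Rsad2, the antiviral enzyme viperin, at 2.75 ± 1.12 and Ifi35 at 2.56 ± 0.58. The chemokines Cxcl10 at 2.37 ± 0.04, Cxcl9 at 2.35 ± 0.61 and Cxcl11 at 2.11 ± 0.56 share the receptor CXCR3. Samhd1 was at 2.12 ± 0.44, Pml, which forms nuclear bodies, at 2.06 ± 0.24, and Ube2l6, the conjugating enzyme of ISG15, at 1.72 ± 0.43. Nmi at 1.56 ± 0.30, Tor3a at 1.497 ± 0.18 and Isg20, an RNA exonuclease, at 1.19 ± 0.07 completed the 12. Of these, Rsad2, Pml and Isg20 did not have every spot past 2-fold. At 24 h Samhd1 at 1.87 ± 0.12 and Nmi at 1.22 ± 0.15 were called. Cxcl9 had a mean of 2.43 ± 2.16 at 24 h but arrays at 0.90 and 3.95, and was not called.

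**Figure D4:**
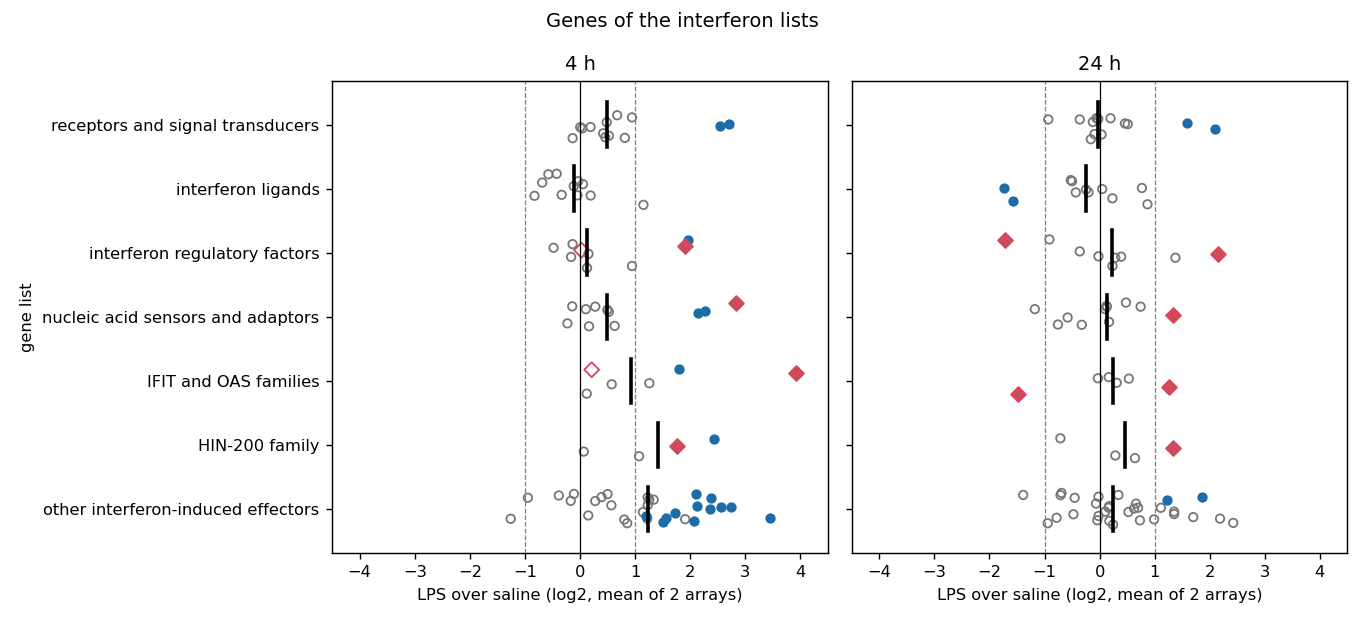
Each point is a gene of an interferon list (rows), with its mean log2 ratio of LPS over saline over 2 arrays on the x axis, at 4 h (left) and 24 h (right), spread vertically to separate points. Filled points were called, open points were not, red diamonds are the 6 genes described here, black bars are list medians and dashed lines mark 2-fold. At 4 h all called genes lie to the right of 0, and at 24 h Irf2, Oasl2, Ifna1 and Ifna4 lie to the left.

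Markers of other cells that an endothelial isolate could hold were set beside these values. There were 86 measured markers of monocytes and macrophages, neutrophils, lymphocytes, dendritic cells, cardiomyocytes, fibroblasts, smooth muscle and pericytes, erythrocytes and platelets. At 4 h 0 of them were called, with a median of -0.08. Of all genes only 2.25% were higher and 0.997% lower at that time, so little is read from this count. At 24 h, 5 (5.81%) were higher and 4 (4.65%) lower, near the 3.48% and 3.52% of all genes, with a median of -0.05. The 13 neutrophil markers had a median of -0.13 and went both ways, with Ngp lower at -1.62 ± 0.82 and 3 higher, which were Fpr2 at 1.20 ± 0.08, S100a9 at 1.55 ± 0.08 and S100a8 at 2.59 ± 1.17. Among 8 markers of erythrocytes and platelets, Klf1 at 2.01 ± 0.24 was higher and Car1 at -1.75 ± 0.11 lower. The other 3 called were Vim of the fibroblast list, higher at 2.04 ± 0.48, and 2 that were lower. These were Cd5 of the lymphocyte list at -2.0 ± 1.00 and Ryr2 of the cardiomyocyte list at -1.40 ± 0.11. Of these called markers, Fpr2, Ngp, Klf1 and Ryr2 did not have every spot past 2-fold. A listed gene, Vim among them, need not be particular to the cell type of its list. The part of these cells in the interferon values was not tested at either time. The 14 monocyte and macrophage markers ran from -0.75 to 0.38 at 4 h and from -1.51 to 0.49 at 24 h. Of 12 endothelial markers, Cldn5 was called higher and Kdr and Eng lower at 4 h, and Kdr and Eng higher at 24 h. Of these calls, only that of Kdr at 4 h lacked 2-fold in every spot. The other 9 were called at neither time, Pecam1 among them at 0.01 ± 0.14 and -0.01 ± 0.87, and the list medians were 0.01 and 0.29.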

How the data were processed

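Amplified RNA labelled with Cy3 and Cy5 was hybridised to Operon mouse long-oligonucleotide arrays, 2 dye-reversed arrays per time, per the labels. The deposited values are log2 ratios, 32448 spots to an array. Scanner, background correction, dye normalization and filters are not stated in the labels, and between 10.2% and 13.4% of spots had a ratio of exactly 1, within 1e-06 log2 units, though none of the 64 member values did. No intensities were used, so the strength of a spot is unknown. Precision is limited by the number of arrays.

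The sign of the LPS-in-Cy3 arrays was turned, adjacent spots of an oligonucleotide were averaged, then those of a gene, and arrays were centred by their median gene (shifts of -0.02 to 0.06). Of the 32448 spots, 24344 had 1 symbol in the platform annotation. Of these, 24076 were matched by Entrez number to RefSeq (GRCm38.p6), and 0 symbols were changed. Promoter sequences are RefSeq's. The files name no build.

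With 1 replicate per time no test was made. limma (3.58.1, R 4.3.3) on the arrays as separate samples was an alternative. Other alternatives changed centring, scaling, spot handling, threshold and direction. Python 3.11.15 was used, and the scripts were tested on simulated data. The genes named were the 6 members, the 2 nearest genes of each, and the called genes of the pathway lists. Members and lists were chosen with earlier results of these data known.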

Additional observations from a re-analysis of the deposited data

Results flagged for a closer look

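Oasl2 stood above 0 on both arrays of 4 h and below 0 on both arrays of 24 h, with a difference of -1.69 between the times. The difference was not tested. Of all 11138 genes, 1369 (12.3%) likewise lay on opposite sides of 0 on all arrays of the 2 times.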

How the results depend on the processing

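Of the 12 member values, 6 genes at 2 times, 10 were called. All 10 were kept without centring, 8 with quantile normalization or the median over spots, and 6 with scale normalization, which lost Ifit2, Ifih1, Oasl2 and Ifi202b at 24 h. Where every spot had to be 2-fold 5 were kept, and of the 7 calls still measured without oligonucleotides whose spots lay over 1 log2 unit apart, 6 were kept and Ifi202b at 4 h was lost. On each array alone the calls hold by the rule itself, and 0 of the 64 spot values of the members were exactly 1, so leaving such ratios out could not remove any. The every-spot and spot-gap settings were chosen for the members after seeing the data, and the spot-gap setting brought Ifi202b to 0.69 at 4 h and 2.24 at 24 h, each from fewer oligonucleotides. With no sign turned 0 were called, since the arrays then cancel. The reversed values were -0.0904 and -0.0298 for Ifit2 at 4 h and 24 h, -0.22 and -0.13 for Ifih1, -0.745 and -0.094 for Irf7, 0.39 for Oasl2 at 24 h and -0.29 for Ifi202b at 4 h.

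The whole-array counts were 362 calls at 4 h (251 higher, 111 lower) and 780 at 24 h. At 4 h this became 557 with scale normalization, 562 with quantile normalization (327 higher and 235 lower), 158 with no sign turned, 175 with every spot past 2-fold, 941 at 1.5-fold, 126 at 3-fold, 561 of 16224 oligonucleotides, and 209 of 7508 genes without discordant oligonucleotides. The scale and quantile settings lowered the share of higher calls, 347 of the 557 being higher. At 24 h it became 424 with scale normalization, 411 with no sign turned, 406 with every spot, 1808 at 1.5-fold, 235 at 3-fold, and 507 without discordant oligonucleotides. On 1 array alone, 1414 and 2317 genes passed 2-fold at 4 h and 3239 and 3408 at 24 h. With limma, no time had a gene below an adjusted p of 0.05 (0 genes), and 475 and 1126 at an unadjusted p under 0.05. The 2201 genes separated between the times became 1298 with no sign turned and 3873 or 4270 on 1 array per time. limma gave 0 for the difference at an adjusted p under 0.05 without and 0 with the replicate block of dye orientation, and 638 and 813 at an unadjusted p under 0.05. Where no gene changes, a share of about 0.05 of the 11138 genes would still have an unadjusted p under 0.05. Nothing is therefore read from the unadjusted limma counts. No paired analysis beyond this block was possible because the labels give no replicate numbers. The depth limit is the number of arrays.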
